A study of Mus musculus with 34 samples.

Results

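The 10 genes described here mark the glial cells of the mouse brain: Fabp7, Hes5 and Slc1a3, which are strong in radial glia and other immature glia, and Gfap, Aqp4, Slc1a2, Aldh1l1, S100b, Aldoc and Gja1, which are used as markers of astrocytes. The division of the genes into 3 immature and 7 astrocyte genes was made for this description, and Slc1a3 belongs to both cell types. The genes were found on the array by the RefSeq accession printed for each probe, which gave 15 probes for these 10 genes out of 20145 named genes. Gfap and Slc1a2 had 3 probes each, Aqp4 had 2, and the others had 1. All 15 probes were well above background in all 34 fractions, except 1 of the Gfap probes, which was so in 33. A gene with several probes stands here by its brightest probe.

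Radial glia are the stem cells of the embryonic brain. Their processes span the wall of the ventricle to the brain surface and guide migrating neurons, and Notch signalling, read out through Hes5, keeps them from becoming neurons. Around birth they turn into astrocytes, which take up glutamate, buffer water and potassium, and couple to each other through gap junctions. In the first days after birth this change is under way in most of the brain, while the cerebellum and the olfactory bulb go on making cells.

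The brains came from male C57BL/6J mice aged 3 days, with no treatment and no genetic change named in the labels. Each brain was cut along a different body axis into fractions labelled 500 micron wide, and total RNA of each fraction was hybridised to 1 single-colour array. Mouse 1 gave 15 coronal fractions, mouse 2 gave 8 horizontal fractions and mouse 3 gave 11 sagittal fractions, of which fractions 1 and 11 each pool 2 cut fractions. There was thus 1 mouse per plane and 1 array per fraction, so planes and mice cannot be told apart, no level has a replicate, and all tests are of position within 1 brain. The arrays had between 29598 and 37091 of 59305 spots well above background and none saturated. The labels do not say where the count of fractions starts. Genes of known regions serve as a guide: Hoxb5 of the hindbrain peaked in coronal fraction 2, Pcp2 of Purkinje cells in fraction 1, Neurod6 of the cortex in fraction 13 and Tbx21 of the olfactory bulb in fraction 15. Neurod2 of the cortex peaked in horizontal fraction 1 and Avp of the hypothalamus in horizontal fraction 8, while in the sagittal series Neurod6 peaked in fraction 1 and Oxt in fraction 6.

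Levels are log2 normalized signals, that is, the log2 processed signal of a probe less the 75th percentile of its array. A level says where a gene is high or low along an axis and is not compared between probes. For every plane, limma fitted a slope, given as the fitted level of the last fraction less that of the first, and a curve, given as the fitted level at the ends less that in the middle. Where fractions were left out, both are given over the fractions that remained. P-values were adjusted by the Benjamini-Hochberg method over 34186 probes, and a change was called at an adjusted p under 0.05. Because whole fractions were measured, fewer cells of a type and less RNA per cell cannot be told apart.

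Along the coronal axis Fabp7 and Hes5 were highest at the olfactory bulb end, whereas Slc1a3 and 6 of the 7 astrocyte genes had their highest level in fractions 1 to 4, towards the hindbrain and cerebellum. Fabp7 encodes a fatty acid binding protein that fills radial glia. Its level was 7.00, 6.98 and 7.02 in coronal fractions 1 to 3, lay between 7.72 and 7.92 in fractions 4 to 8, went down to 6.89 in fraction 13 and was 8.50 in fraction 15. The profile thus had a plateau in the midbrain and diencephalic fractions and a peak in the last fraction, with a range of 3.06-fold. Neither the slope of Fabp7 (0.34 ± 0.37, SE, n = 15 fractions, limma adjusted p = 0.504) nor its curve (-0.20 ± 0.34, adjusted p = 0.693) was called.

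Hes5 encodes a repressor of neuronal differentiation that Notch switches on. Its level was lowest in coronal fraction 1, at 5.28, had a median of 5.59, and was highest in fractions 14 and 15, at 5.79 and 6.47. Fractions 2 to 13 all lay between 5.30 and 5.73, so the last fraction stood above all others on this axis. The slope was 0.26 ± 0.21 (adjusted p = 0.360). Slc1a3 encodes the glutamate transporter GLAST of radial glia, Bergmann glia and astrocytes. Its level was 4.35, 4.84 and 4.54 in fractions 1 to 3, reached its lowest value of 3.58 in fraction 9, and was 4.32 and 4.46 in fractions 14 and 15. Slc1a3 was therefore high at both ends and low between, with a called slope of -0.51 ± 0.18 (adjusted p = 0.0380) and a called curve of 0.82 ± 0.16 (adjusted p = 0.00189).

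**Figure D1:**
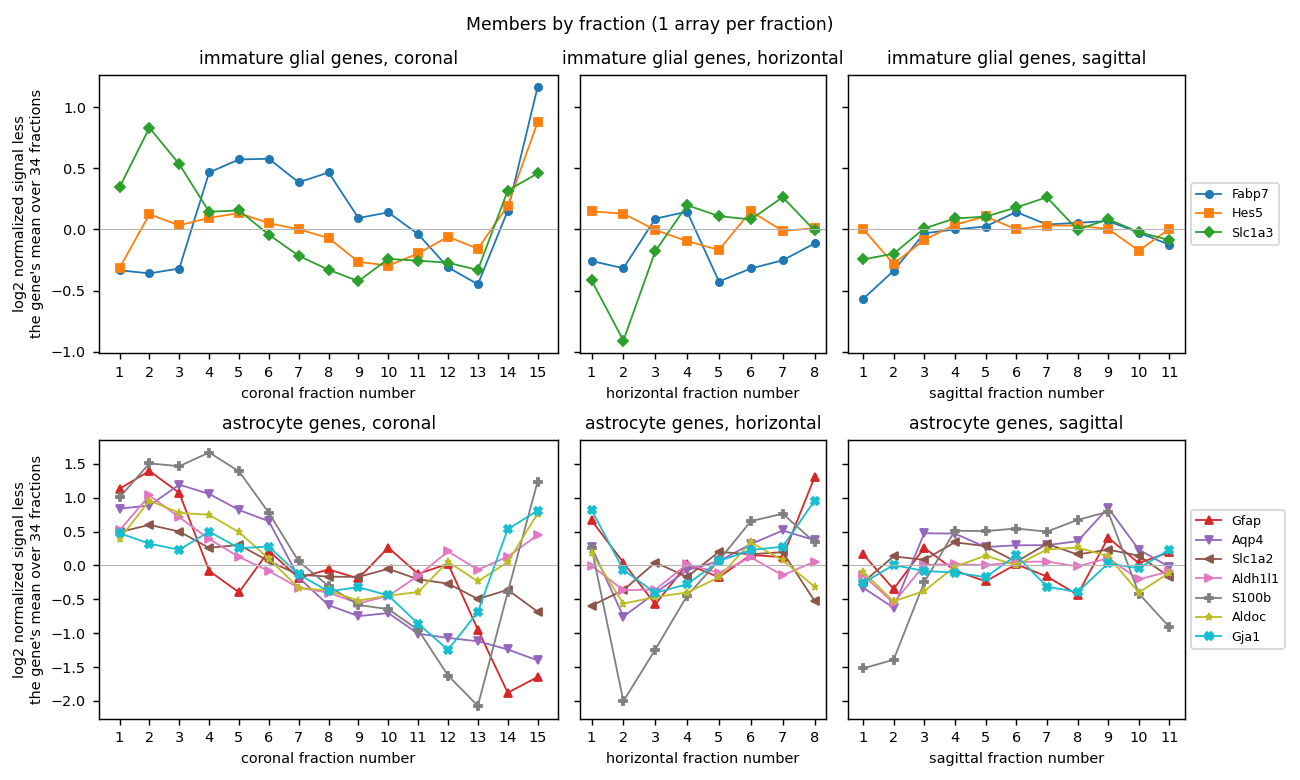
Log2 normalized signal of each gene less its mean over the 34 fractions (y axis) against the fraction number (x axis) for the coronal, horizontal and sagittal series, immature genes above and astrocyte genes below. Each point is 1 array. Fabp7 and Hes5 peak in coronal fraction 15, where Aqp4 and Slc1a2 are lowest, and S100b has the widest range in all 3 series.

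Among the astrocyte genes, Gfap, Aqp4 and Slc1a2 went down along the coronal axis to the last fractions. Gfap encodes the intermediate filament of fibrous astrocytes. Its level was 3.14, 3.41 and 3.08 in coronal fractions 1 to 3, lay between 1.61 and 2.27 in fractions 4 to 12, and was 1.06, 0.13 and 0.36 in fractions 13 to 15. The fitted slope was -2.40 ± 0.42, a 5.26-fold difference (adjusted p = 0.000657). The other Gfap probes had slopes of -2.29 and -2.21, both called. One of them, at -0.68 in fraction 6 against -2.84 and -2.72 in the neighbouring fractions, was out of line there with the other Gfap probes.

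Aqp4 encodes the water channel of astrocyte endfeet. Its level lay between 2.50 and 3.04 in coronal fractions 1 to 6, was 1.67 in fraction 7, and then went down to 0.44 in fraction 15. The slope of -2.87 ± 0.26, a 7.29-fold difference, was called (adjusted p = 4.37e-06), as was that of the other Aqp4 probe (-3.18 ± 0.37). Slc1a2 encodes the glutamate transporter GLT-1, which appears as astrocytes mature. Its level was 1.61 in fraction 2, 0.87 in fraction 7 and 0.32 in fraction 15, with a slope of -1.14 ± 0.11 (adjusted p = 8.58e-06), and both its other probes were called with slopes of -1.19 and -1.13. None of these 3 genes had a called curve, and unlike Fabp7 and Hes5 none was higher in fraction 15 than in fraction 12.

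S100b, Aldoc, Aldh1l1 and Gja1 made a second pattern, with high levels at the hindbrain end and again in the last fraction. S100b encodes a calcium-binding protein of astrocytes and of part of the oligodendrocyte lineage. Its level was 3.41, 3.92, 3.87 and 4.08 in coronal fractions 1 to 4, went down stepwise to 0.33 in fraction 13, and was 2.01 and 3.65 in fractions 14 and 15. This was the widest range of the 10 genes, 13.4-fold, with a called slope of -2.56 ± 0.68 (adjusted p = 0.00896). Its curve of 1.09 ± 0.62 was not called (adjusted p = 0.194).

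Aldoc encodes the brain form of the glycolytic enzyme aldolase, which is made by astrocytes and Bergmann glia and by Purkinje cells. Its level was 8.12 in coronal fraction 2, 6.64 in fraction 9 and 7.93 in fraction 15, with a called slope of -0.73 ± 0.27 (adjusted p = 0.0469) and a called curve of 0.95 ± 0.25 (adjusted p = 0.00968). Aldh1l1 encodes a folate enzyme found in nearly all astrocytes. Its level was 6.02 in fraction 2, 4.42 in fraction 9 and 5.43 in fraction 15, with a called slope of -0.62 ± 0.20 (adjusted p = 0.0249) and a called curve of 0.99 ± 0.18 (adjusted p = 0.00101). Aldoc, Aldh1l1 and Slc1a3 all had their highest coronal level in fraction 2 and their lowest in fraction 9. Gja1 encodes connexin 43, the main gap junction protein of astrocytes, which meningeal cells make as well. Its level was 0.50 in fraction 1, -1.23 in fraction 12, and 0.55 and 0.83 in fractions 14 and 15. Its slope of -0.65 ± 0.38 (adjusted p = 0.201) and its curve of 0.91 ± 0.35 (adjusted p = 0.0612) were not called.

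In all, 7 of the 10 genes had a called coronal slope, all of them lower at the last fraction, 1 of 3 immature genes and 6 of 7 astrocyte genes. Of all probes tested, 13.9% were called lower and 25.0% higher on this axis, and the median slope over all probes was 0.13. A called curve with higher ends was found for 3 of the 10 genes, beside 14.9% of all probes called higher and 17.6% called lower at the ends. The joint test of slope and curve called 8 of 10 genes, all but Fabp7 and Hes5, against 56.0% of all probes. A spline with 3 degrees of freedom, which can follow a plateau and a late peak, called 10 of 10 genes, Fabp7 with an adjusted p of 0.0120 and Hes5 of 0.000769, against 60.4% of all probes.

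**Figure D2:**
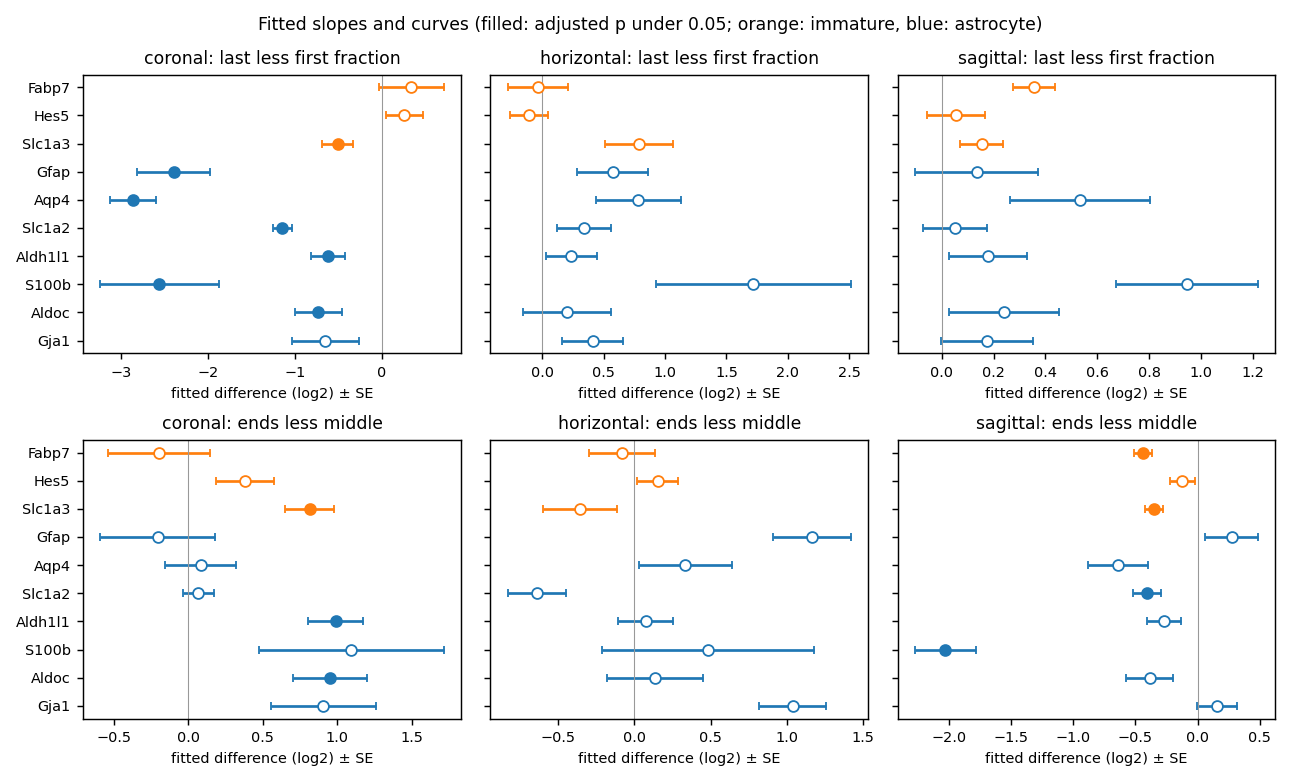
Fitted slopes (last less first fraction, upper panels) and curves (ends less middle, lower panels) in log2 units with their standard errors for the 10 genes in each plane. Filled points are called at an adjusted p under 0.05, orange points are immature genes and blue points astrocyte genes. The 7 called coronal slopes lie between -2.87 and -0.51, and the 4 called sagittal curves between -2.03 and -0.35.

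Coronal fractions 1 to 8 were hybridised on 1 slide, fraction 12 on another and the other 6 on one more, so slide and position went together. With slide as a block 3 of the 7 slopes were still called, those of Gfap (-3.89, adjusted p = 0.00939), Aqp4 (-2.31, adjusted p = 0.0303) and Slc1a2 (-1.43, adjusted p = 0.00453), against 2.64% of all probes called lower. Within the slide that held fractions 1 to 8, 8 genes were called lower towards fraction 8, against 11.5% of all probes, and Fabp7 was called higher (1.01 ± 0.24, adjusted p = 0.0232), against 15.4% of all probes. The 8 genes were Slc1a3 and all 7 astrocyte genes, with slopes over these 8 fractions from -1.59 for Gfap to -0.70 for Gja1, and Hes5 had a slope of 0.10 ± 0.12 (adjusted p = 0.583). In this stretch from the hindbrain to the diencephalon the immature marker Fabp7 and the astrocyte genes thus changed in opposite directions on a single slide.

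The last coronal fractions carried other differences too. Tbx21 and Cdhr1, genes of olfactory bulb mitral cells, peaked in fraction 15, at 3.46 and 5.42. So did Sox10, at 3.68 against a coronal median of 1.67, which marks the oligodendrocyte lineage and also the ensheathing glia of the olfactory nerve. Most other genes of the oligodendrocyte list did not peak there, and Olig2, Pdgfra, Cspg4 and Mbp had their lowest coronal level in fraction 15, where the median of the list, each gene less its mean over the fractions, was -0.71. The mean level of 5 meningeal genes, each less its mean over the fractions, was 1.36 in fraction 15 and -0.89 in fraction 11, and the collagen gene Col1a1 peaked in fraction 15 at 4.46. Olfactory ensheathing glia are known to make Fabp7 and S100b. The part of these cells or of meninges in the high levels of Fabp7, S100b and Gja1 there was not tested. Without fractions 14 and 15 the slopes of Fabp7 and Hes5 were -0.09 ± 0.17 and -0.20 ± 0.14, on the other side of 0 and not called, and 8 of 10 genes were called lower, Gja1 now among them (-1.57 ± 0.19), against 14.9% of all probes. The curve of S100b then turned from 1.09 to -0.79 and was called (adjusted p = 0.0320), as was that of Fabp7, at -0.97 (adjusted p = 0.000952), while of the 3 curves called before only that of Aldh1l1 was called again (0.73, adjusted p = 0.0164).

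The comparison of both gene sets by plane was made on the mean of the genes of each set after each gene's mean over the 34 fractions was taken away, as a description with no test. In coronal fractions 1 to 3 the immature mean less the astrocyte mean was -0.80, -0.76 and -0.77. The difference was -0.09 in fraction 6, 0.23 in fraction 7 and 0.90 in fraction 15, so the immature genes rose along this axis relative to the astrocyte genes. The fraction where the difference passes 0 depends on the means taken away and gives no order of both sets. The median slope was 0.26 for the immature genes and -1.14 for the astrocyte genes, and the median curve was 0.38 and 0.91. With Slc1a3 counted among the astrocyte genes the difference of the median slopes was 1.24 in place of 1.41.

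**Figure D3:**
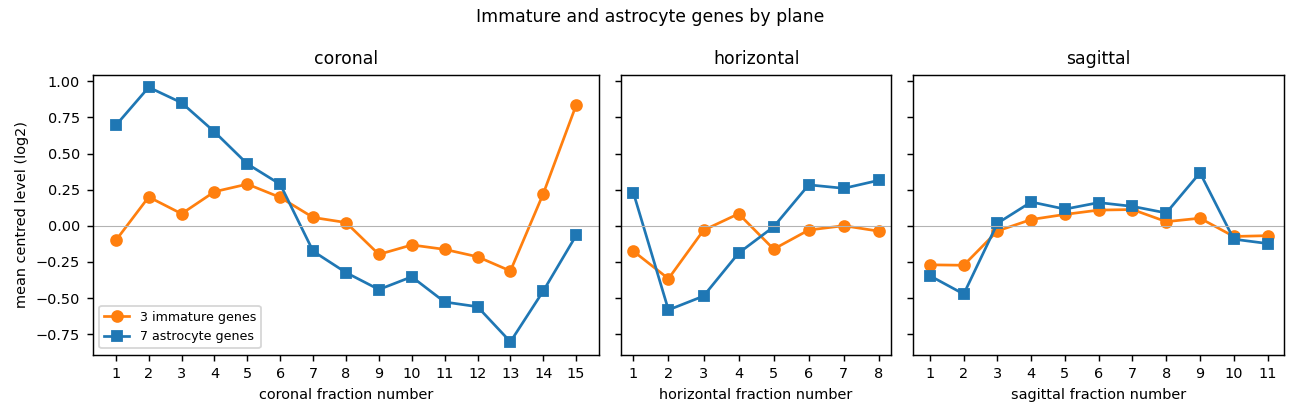
Mean log2 level, after each gene's mean over the 34 fractions was taken away, of the 3 immature genes and the 7 astrocyte genes (y axis) in every fraction of the coronal, horizontal and sagittal series (x axis), 1 array per point. The coronal lines cross between fractions 6 and 7 and end 0.90 apart, while the sagittal lines run together.

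In the horizontal series no slope and no curve of the 10 genes was called by limma, with 1 slope and 3 curves at an unadjusted p under 0.05. Of all probes, 1.56% were called higher and 1.23% lower along this axis, and 0.723% higher and 0.205% lower at the ends. The joint test called 0 of 10 genes, with 4 at an unadjusted p under 0.05, against 3.29% of all probes, and the spline called 0 of 10 against 1.72%. With 8 fractions in 1 mouse, few probes of any kind passed the test. The levels are therefore given as values.

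Fraction 2 of this series, which lay next to the fraction where Neurod2 peaked, held the lowest level of 5 of the 10 genes. S100b was at 2.67 in fraction 1, at 0.40 in fraction 2 and then went up through 1.16, 1.96 and 2.48 to 3.17 in fraction 7. Slc1a3 was at 3.09 in fraction 2 and at 4.27 in fraction 7, and Aqp4 was at 1.09 in fraction 2 and at 2.36 in fraction 7. Aldoc and Aldh1l1 were also lowest in fraction 2, at 6.60 and 4.62. Without fraction 1, the slopes of S100b (2.61 ± 0.20, adjusted p = 0.00682) and Aqp4 (1.20 ± 0.14, adjusted p = 0.0180) were called, 2 of 10 genes against 1.76% of all probes called higher.

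Gfap and Gja1 had the highest levels at both ends of the horizontal series. Gfap was at 2.67 in fraction 1, at 1.43 in fraction 3 and at 3.31 in fraction 8. Gja1 was at 0.84 in fraction 1, at -0.39 in fraction 3 and at 0.97 in fraction 8. Their curves were 1.17 ± 0.25 (adjusted p = 0.102) and 1.04 ± 0.22 (adjusted p = 0.0933), short of the threshold. The mean level of the meningeal genes was 0.66 in fraction 1, -0.30 in fraction 5 and 1.40 in fraction 8, and 4 of these 5 genes had a called curve with higher ends, against 0.723% of all probes. Their part in the levels of Gfap and Gja1 was not tested. Slc1a2 had the reverse profile, at 0.41 in fraction 1, 1.21 in fractions 5 and 7, and 0.49 in fraction 8, with a curve of -0.64 ± 0.19 that was not called (adjusted p = 0.194).

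Of the 10 genes, Hes5 had the narrowest range along this axis, 0.32, and Aldh1l1 (0.48) and Fabp7 (0.57) the next, while Slc1a3 spanned 1.18. Fabp7 lay between 6.91 in fraction 5 and 7.48 in fraction 4, and Hes5 between 5.43 in fraction 5 and 5.74 in fraction 6. The immature mean less the astrocyte mean was -0.40 in fraction 1, 0.46 in fraction 3 and -0.35 in fraction 8, so the astrocyte genes were relatively high in fraction 1 and in fractions 5 to 8 and relatively low in fractions 2 to 4. The ranges of the immature and astrocyte means were 0.45 and 0.90.

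In the sagittal series the levels were low at the edges and high in the middle for most genes of both sets. S100b was at 0.89 and 1.01 in fractions 1 and 2, lay between 2.16 and 3.20 in fractions 3 to 9, and was at 1.99 and 1.50 in fractions 10 and 11. The curve of -2.03 ± 0.24, a 4.07-fold difference, was called (adjusted p = 0.000378). Fabp7 was at 6.77 in fraction 1, at 7.48 in fraction 6 and at 7.21 in fraction 11, with a called curve of -0.44 ± 0.07 (adjusted p = 0.00189). Slc1a3 was at 3.76 in fraction 1, at 4.27 in fraction 7 and at 3.92 in fraction 11 (curve -0.35 ± 0.07, adjusted p = 0.00595). Slc1a2 was at 0.76 in fraction 1, at 1.35 in fraction 4 and at 0.84 in fraction 11 (curve -0.41 ± 0.11, adjusted p = 0.0192), but neither of its other probes was called (-0.05 and -0.18).

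The rest of the genes were not called by the brightest probe. Aqp4 was at 1.52 in fraction 1, at 2.70 in fraction 9 and at 1.83 in fraction 11 (curve -0.64 ± 0.24, adjusted p = 0.0679), and its other probe had a called curve of -0.87 ± 0.23 (adjusted p = 0.0190). Aldoc and Aldh1l1 had curves of -0.39 ± 0.19 and -0.27 ± 0.13. Hes5 ranged from 5.31 to 5.70, Gja1 from -0.38 to 0.25 and Gfap from 1.58 to 2.42. The latter pair had curves above 0, at 0.15 ± 0.16 and 0.27 ± 0.21, which were not called.

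Thus 4 of 10 genes, 2 immature and 2 astrocyte genes, had a called sagittal curve with lower ends, beside 11.9% of all probes called lower and 20.3% called higher at the ends. The joint test called 3 of 10 genes, near the 26.5% of all probes, and the spline called 3 of 10, against 15.7%. No sagittal slope of the 10 genes was called by limma, with 2 at an unadjusted p under 0.05, and the background was 0.0% in both directions. The mean of the immature genes ran with that of the astrocyte genes in this series, and their difference stayed between -0.31 in fraction 9 and 0.20 in fraction 2. The median curve was -0.35 for the immature and -0.39 for the astrocyte genes. Sagittal fractions 2 to 9 shared 1 slide, fraction 1 lay on another and fractions 10 and 11 on one more, and with slide as a block none of the 4 curves was called, against 1.89% of all probes. The curves in that fit were -1.81 for S100b (adjusted p = 0.0671), -0.41 for Fabp7 (adjusted p = 0.157), -0.43 for Slc1a3 (adjusted p = 0.162) and -0.28 for Slc1a2 (adjusted p = 0.498).

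The upstream sequence of the genes was examined for the core motif of RBPJ, the DNA-binding protein of the Notch pathway, because Hes5 is the classical Notch target and Fabp7 and Gfap had different coronal profiles. The motif searched was TGGGAA on either strand, which reads TTCCCA on the reverse strand, in the 250 bases before a transcript start that RefSeq lists for each gene. Such a window need not lie before the first base of the gene. The window of Hes5 began 47 bases inside the annotated gene, and that of Slc1a2 lay far inside its gene. Sequences are those of RefSeq on GRCm38.p6, and 21.6% of 32851 such windows of the genome held the motif. Of the genes examined, Hes5, Fabp7, Gfap, Aldh1l1, S100b and Aldoc held it, and Slc1a2, Slc1a3 and Gja1 did not. Aldoc had 2 such windows, the second inside the gene, and both held it. Aqp4 was not examined. The windows of Fabp7 (chr10:57784673-57784922, plus strand) and of Gfap (chr11:102897201-102897450, minus strand) are shown with the motif in capitals, next to stretches of 30 bases around both matches of Hes5 (chr4:154960685-154960714 and chr4:154960829-154960858, plus strand).
Fabp7: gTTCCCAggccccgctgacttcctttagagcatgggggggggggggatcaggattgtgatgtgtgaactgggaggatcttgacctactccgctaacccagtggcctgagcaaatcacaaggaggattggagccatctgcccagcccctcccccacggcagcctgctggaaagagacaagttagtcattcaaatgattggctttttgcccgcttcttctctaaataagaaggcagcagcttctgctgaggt
Gfap: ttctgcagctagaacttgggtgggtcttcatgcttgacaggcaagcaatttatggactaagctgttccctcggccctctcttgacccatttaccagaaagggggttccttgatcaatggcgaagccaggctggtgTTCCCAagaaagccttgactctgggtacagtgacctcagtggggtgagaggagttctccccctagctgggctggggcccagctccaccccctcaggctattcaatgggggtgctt
Hes5, distal match: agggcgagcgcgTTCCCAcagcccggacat
Hes5, proximal match: ggccgccgagtgTGGGAAcggccgcggcgc
The matches began 249 bases before the start site listed for Fabp7, 115 before that of Gfap, and 226 and 82 before that of Hes5. A match of this length describes the sequence and is not evidence of binding, and genes with and without it were found among both sets.

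Likeness among the genes was described by Pearson's r over the 34 fractions after the mean of each plane was taken away, with no test, since fractions share a mouse, slides and neighbours. Pairs of astrocyte genes had a median r of 0.54 (21 pairs, 0.06 to 0.87), and pairs of an immature and an astrocyte gene a median of 0.36 (21 pairs, -0.43 to 0.79). The 3 pairs of immature genes had a median of 0.33 (0.10 to 0.56), below that of the pairs between the sets. The closest pair was Aldh1l1 and Aldoc, at 0.87. Slc1a3 was nearer to Aldh1l1 (0.79), S100b (0.75) and Aldoc (0.73) than to Hes5 (0.33) or Fabp7 (0.10). Fabp7 and Hes5 had an r of 0.56 with each other and of -0.43 and -0.37 with Gfap. The likeness differed by plane: Aqp4 and S100b had an r of 0.99 over the 8 horizontal fractions, Gfap and Gja1 of 0.92 there but of -0.07 over the 15 coronal ones, and Gfap and Slc1a2 of 0.84 over the coronal and -0.69 over the horizontal fractions.

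**Figure D4:**
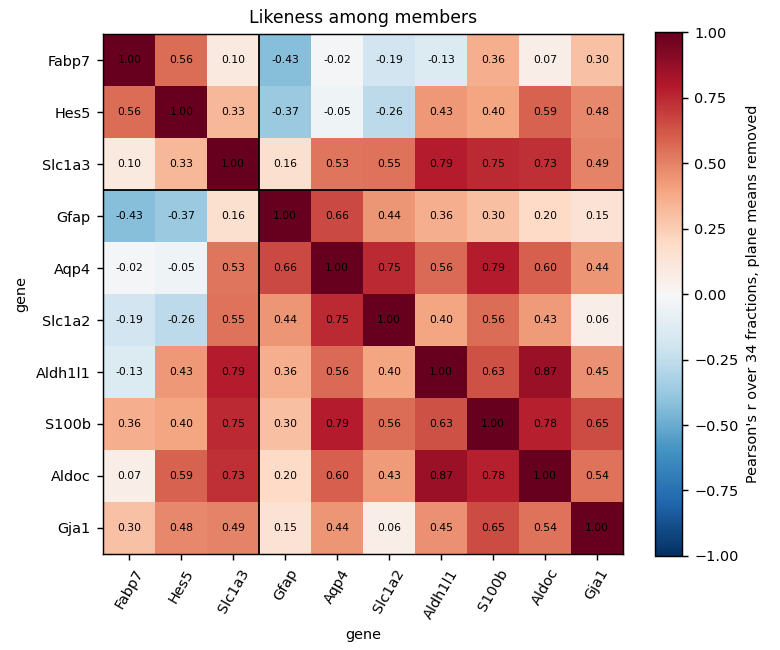
Pearson's r between the log2 levels of each pair of genes over 34 fractions after the plane means were taken away, with immature genes first and lines between the sets. Aldh1l1 and Aldoc have the highest value, 0.87, and Fabp7 and Gfap the lowest, -0.43.

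Of all other named genes tested, the one most like each gene by the same measure was Rmdn2 for Fabp7 (r = 0.82), Rgcc for Hes5 (0.92), Cacng5 for Slc1a3 (0.91) and Thbs4 for Gfap (0.87). It was Fa2h for Aqp4 (0.94), Tspan2 for Slc1a2 (0.91), Rgl3 for Aldh1l1 (0.88), 9630013A20Rik for S100b (0.94), Sec14l2 for Aldoc (0.91) and Fkbp9 for Gja1 (0.93). These are descriptions over 34 fractions that share mice and slides. Within the 11 sagittal fractions the values were lower for some of them, such as 0.56 for Thbs4 and 0.64 for Rgl3. The lowest value within a plane was that of Rgcc with Hes5 over the 8 horizontal fractions, at 0.41.

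A wider list of 33 astrocyte genes was tested in the same fits. This list and those below were chosen with earlier results of these data known, so their shares are descriptions only. The probes of the 33 genes were well above background in all 34 fractions. Of the 25396 probes with that property, tested by themselves, 11902 had a called coronal slope in either direction. Of all 34186 probes, 13296 had one. Along the coronal axis 20 of 33 were called lower (60.6%, against 13.9% of all probes) and 3 higher (9.09%, against 25.0%), with a median slope of -0.76 beside 0.13 over all probes. The lowest slopes were those of Pla2g7 (-3.19 ± 0.42), a lipid-cleaving enzyme of astrocytes, and Cldn10 (-2.95 ± 0.27), a claudin, and the highest those of Dio2 (3.65 ± 0.55), which activates thyroid hormone, and Fjx1 (0.83 ± 0.16), a homolog of the fly gene four-jointed. In the sagittal series 17 of 33 had a called curve with lower ends, against 11.9% of all probes, and 1 with higher ends, against 20.3%, led by Itih3 (-2.02 ± 0.19) and the GABA transporter Slc6a11 (-1.37 ± 0.13). In the horizontal series 1 slope, that of Mlc1 (1.29 ± 0.21), and 1 curve, that of the gap junction gene Gjb6 (1.65 ± 0.20), were called, against 1.56% and 0.723% of all probes called in these directions.

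The wider list of 21 radial glia genes held changes both ways. Along the coronal axis 10 were called lower (47.6%, against 13.9% of all probes) and 3 higher (14.3%, below the 25.0% of all probes), with a median slope of -0.38, led by Hopx (-2.73 ± 0.29), a homeodomain protein, and the endothelin receptor Ednrb (-1.83 ± 0.26) on one side, and by Sox1 (1.40 ± 0.32), a factor of neural progenitors, and the metallothionein Mt3 (1.1 ± 0.21) on the other. A called coronal curve with higher ends was found for 9 and one with lower ends for 1 of them, against 14.9% and 17.6% of all probes. In the sagittal series 7 had a called curve with lower ends, led by Pax6 (-1.95 ± 0.41) and Id4 (-1.36 ± 0.09), against 11.9% of all probes, and 4 one with higher ends (19.1%, near the 20.3% of all probes), led by Id1 (0.63 ± 0.14) and Id3 (0.53 ± 0.15). Horizontal slopes were called for Sox1 (1.60 ± 0.30) and Nes (-0.93 ± 0.17), the intermediate filament of progenitors.

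Of 17 genes of the Notch pathway, 4 were called lower and 4 higher along the coronal axis, with a median slope of 0.03. Either count is 23.5% of the list, beside 13.9% of all probes called lower and 25.0% called higher, so the share called higher was near that of all probes. The effector Hey1 (-1.41 ± 0.15) and the ligand Dll3 (-1.21 ± 0.16) were lowest, and the effector Heyl (1.58 ± 0.39) and the glycosyltransferase Mfng (0.83 ± 0.22) highest. In the sagittal series 4 had a called curve with lower ends, Hey2 (-1.22 ± 0.32) and Rbpj (-0.66 ± 0.08) among them, against 11.9% of all probes, and 3 one with higher ends (17.6%, near the 20.3% of all probes). Of 5 genes listed for Bergmann glia, the radial cells of the cerebellum, 4 were called lower along the coronal axis, against 13.9% of all probes, with the Wnt inhibitor Wif1 at -3.60 ± 0.51 and Hopx again at -2.73. The same number had a called coronal curve with higher ends, against 14.9% of all probes, led by Gdf10 (3.10 ± 0.46).

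Genes of other cells and states changed along the same axis, in either direction, and the shares of all probes called there were 13.9% lower and 25.0% higher. All 5 proliferation genes were called lower along the coronal axis (median slope -1.05), with a mean level of 1.54 in fraction 1 and -0.33 in fraction 7. Of 11 oligodendrocyte lineage genes, 7 were called lower (median slope -0.69), led by the myelin genes Mag (-4.70 ± 0.42) and Ugt8a (-3.16 ± 0.31), and their mean level was 0.82 in fraction 3 and -0.51 in fraction 13. In the sagittal series 6 of these 11 had a called curve with lower ends, against 11.9% of all probes. Aqp4, S100b and Slc1a2 were also called lower along the coronal axis. S100b was high again in the last coronal fraction, where the median level of the oligodendrocyte list was low. The part of this lineage in the levels of Aqp4, S100b and Slc1a2 was not tested. None of the 5 meningeal genes had a called coronal slope, and 4 had a called curve with higher ends (median 1.52), against 14.9% of all probes. Of 7 neuronal genes, 3 were called higher along the coronal axis, among them Tubb3 (1.03 ± 0.16), and 1 lower, the neurofilament gene Nefl (-2.96 ± 0.28). Of 6 microglia genes 2 were called higher, C1qa (0.58 ± 0.18) and Tmem119 (0.81 ± 0.16), and of 5 endothelial genes also 2, Slco1c1 (0.47 ± 0.13) and Cldn5 (0.92 ± 0.15), with none lower (0) in either list and median slopes of 0.38 and 0.27. Of 7 genes of choroid plexus and ependyma 2 were called lower, Otx2 (-3.52 ± 0.52) and Kl (-2.15 ± 0.55), and none higher (0). Otx2 also stood on a list of midbrain genes. It peaked in coronal fraction 3, as Kl did, but in horizontal fraction 2, where Ttr and Folr1 of the choroid plexus were lowest.

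**Figure D5:**
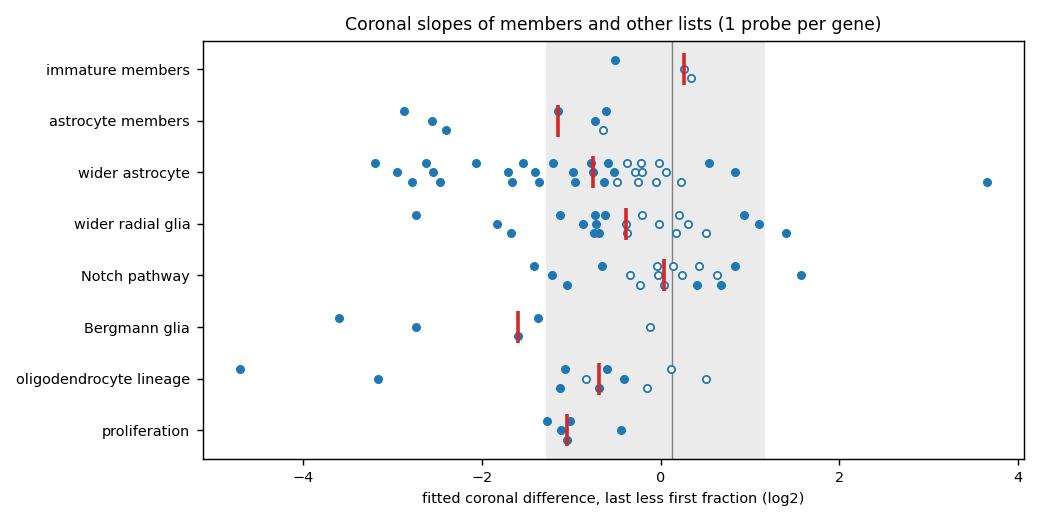
Fitted coronal slope (last less first fraction, log2, x axis) of each gene of the immature and astrocyte sets and of 6 other lists (rows), 1 probe per gene. Filled points are called at an adjusted p under 0.05, red bars are list medians, the grey line is the median over all probes (0.13) and the shaded band runs from the 5th to the 95th percentile of all probes (-1.27 to 1.16). The medians of the astrocyte members (-1.14) and of the wider astrocyte list (-0.76) lie below that of all probes. So do those of wider radial glia (-0.38), the Notch pathway (0.03), Bergmann glia (-1.60), the oligodendrocyte lineage (-0.69) and proliferation (-1.05). The median of the immature members (0.26) lies above it.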

How the data were processed

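The sources were 34 single-colour Agilent arrays of 3 mouse brains. The authors extracted total RNA from each fraction, labelled it with Cy3 and read the scans with Agilent Feature Extraction 10.10.1.1, and deposited for each array the intensity of every spot before and after background subtraction, with no scaling of one array to another. A second deposited file gives log2 values of 43199 probes, and 99.9% of them differed by under 0.02 from the processed signal on the log2 scale once a constant was removed from each array. Probe coordinates in the headers refer to mm9 and were not used. The precision of a level is limited by the number of arrays, which was 1 per fraction, and signal over background stood in for depth.

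Here the processed signals of the spots of a probe were averaged without outlier spots, log2 transformed and set against the 75th percentile of the array. Of 55681 probes, 26582 were named through RefSeq accessions, and the 34186 probes tested passed the scanner's background flag somewhere in every plane. Slopes and curves of fraction number were fitted in each plane by lmFit and eBayes of limma 3.58.1 (R 4.3.3), with p-values adjusted by the Benjamini-Hochberg method. The script was tested on simulated data. P-values measure scatter around a smooth profile within 1 mouse. Alternatives covered scaling, background correction, detection filters, slide, left-out fractions and the trend of the variance. The joint test and the fits without coronal fractions 14 and 15 or without horizontal fraction 8 were added after seeing the data.

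The members and gene lists were chosen with earlier results of these data known. Named genes were all members, the gene most like each member, up to 2 genes in each direction of other lists with the largest called change, and markers of regions and cell types with their peak fraction.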

Additional observations from a re-analysis of the deposited data

Results flagged for a closer look

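The second Aqp4 probe (not the brighter one) was at 0.96 in horizontal fraction 2, apart from the other 7 horizontal fractions, which lay between 1.64 and 2.21. The gap to the nearest of them was 0.55 of the whole range, above Dixon's limit for a lone extreme among 8 values. It was the only one of 15 probes searched in this series that passed, and about 1 in 20 such groups passes by chance. The brighter Aqp4 probe was also lowest in this fraction, at 1.09.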

How the results depend on the processing

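With slide as a block the genes with a called slope along the coronal axis went from 7 to 3, those with a called sagittal curve from 4 to 0, and those called by the joint test in the sagittal series from 3 to 1. Over all probes that joint test went from 9071 to 1015 called with slide as a block. Within the largest slide of each plane no sagittal curve was called (0), and the curves of Slc1a3 (-0.16, adjusted p = 0.613), Aldh1l1 (-0.21, adjusted p = 0.539) and Aldoc (-0.59, adjusted p = 0.120) along coronal fractions 1 to 8 turned below 0, on 8 fractions without the olfactory end. The difference of median slopes, immature less astrocyte, was 1.43 over these fractions beside 1.41 over all 15, and that of median curves 0.036 in place of -0.53. Without slide 5, 2 sagittal slopes and 0 sagittal curves were called. For the sagittal curves the array median gave 2 and quantile normalization 8 called genes in place of 4, and the array median moved the median curve of all probes from 0.06 to 0.21. Over all probes the called sagittal curves went the other way, from 11003 to 12584 with the array median and to 9478 with quantile normalization. The joint test in the sagittal series called 7 genes with quantile normalization and 5 with normexp background, with probes detected in all 34 fractions or with limma-trend, in place of 3. Over all probes it called 7562, 12569, 9354 (of 25396 tested) and 10136 under these settings in turn, in place of 9071. In the horizontal series, where 0 genes were called, 2 slopes were called without fraction 1 and without the first and last fraction, and 2 curves with normexp background, with probes detected in all 34 fractions and with limma-trend. The joint test there called 2 genes under these last 3 settings and without fraction 1, and 1 without the first and last fraction. Over all probes, 955 horizontal slopes were called without fraction 1 and 326 without the first and last fraction, in place of 956. The last 3 settings called 759, 595 (of 25396 tested) and 581 curves, in place of 317. By the joint test they called 2601, 1967 and 2392 probes, in place of 1124. It called 873 without fraction 1 and 67 without the first and last fraction. The horizontal difference of median slopes was -1.09 without fraction 1 in place of -0.45, and that of median curves 0.32 without fraction 1 in place of -0.41. The cause of these changes was not tested. All other counts of the 10 genes under the settings run were within 1.5 times of the reported ones, and the wider lists were counted under the reported setting only. Some counts over all probes moved more. Called coronal slopes went from 13296 to 1748 with slide as a block and called coronal curves from 11106 to 751 within the largest slide. Called sagittal curves went from 11003 to 2947 without slide 5, to 1092 with slide as a block and to 1132 within the largest slide. Sagittal slopes went from 0 to 2896 without slide 5. Horizontal slopes went from 956 to 3 and curves from 317 to 0 without slide 5, and with normexp background to 1834 and 759. No paired analysis was possible because fraction numbers name positions on different axes of different mice.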
